A study of Mus musculus with 2 samples.

Results

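Foxp3, Ctla4, Ikzf2 and the adenosine genes Nt5e, Entpd1 and Adora2a were examined as a group of 6 genes tied to regulatory T cells and to the restraint of T cell responses. The members were all probes that the platform's annotation gives to 1 of these symbols alone. That rule found 7 probes for 5 of the 6 genes, out of 17501 named genes on the arrays: 2 probes each for Foxp3 and Entpd1 and 1 each for Ctla4, Ikzf2 and Nt5e. No probe was annotated to Adora2a, so its values were not analysed here.

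Lymphocytes of a TRP-1 mouse, which carries a T cell receptor against a melanocyte protein, were polarized in culture before RNA was taken. Th17-polarized or Th1-polarized cells (Cy5) shared an array with Th0 cells (Cy3), the usual name for cells activated without a lineage-directing set of cytokines. Each comparison had 1 array, with no replicate and no dye swap, so no value was tested and the number of arrays limits the precision. The cytokines added, the purity of the cells, the animals behind each RNA and whether a single Th0 RNA served both arrays are not stated in the labels.

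Foxp3 is the transcription factor that defines regulatory T cells, and Ikzf2 encodes Helios, an Ikaros family zinc finger factor found in many of them. Ctla4 encodes an inhibitory receptor that competes with CD28 for the ligands CD80 and CD86. The ectoenzyme CD39, made from Entpd1, removes phosphates from extracellular ATP and ADP, and CD73, made from Nt5e, turns the resulting AMP into adenosine. Adenosine acts on T cells mainly through the A2A receptor, made from Adora2a, which raises cyclic AMP and dampens activation.

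The deposited values are log2 ratios of the 2 channels, and the table does not state which channel is the numerator. Read by the titles and dyes, a positive value means more RNA in the polarized cells than in Th0 cells. The cytokine gene Il17a, which names the Th17 fate, lay at −5.37 on the Th17 and Th0 array, and Ifng, the gene of interferon gamma made by Th1 cells, lay at −2.02 on the Th1 and Th0 array. On the titled reading both would be lower in the cells named for them, and with the sign turned both would be higher. Values are therefore printed as deposited, and the negative side is called the Il17a side on the Th17 and Th0 array and the Ifng side on the Th1 and Th0 array. Genes on the Il17a side differ between Th17-polarized and Th0 cells in the same direction as Il17a, whichever reading holds. Only sides and sizes are given below, since neither reading could be settled.

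The sequences upstream of the 3 genes that lay at least 2-fold from 0 on the Th17 and Th0 array are shown because Nt5e, Ctla4 and Entpd1 carried the differences described here. Each is the 250 bases before an annotated gene start in RefSeq (build GRCm38.p6, plus strand, 5′ to 3′), at chr9:88327359-88327608 for Nt5e, chr1:60908775-60909024 for Ctla4, and chr19:40612116-40612365 and chr19:40659520-40659769 for the 2 starts of Entpd1. Promoter sequences were found for 4 of the 6 genes. Capitals mark matches, on either strand, to the letters CAGAC (a SMAD box), GCGTG (an aryl hydrocarbon receptor core), TTCNNNGAA (a STAT site), TGACG (a cyclic AMP response core), TGANTCA (an AP-1 site) or AGGTCA (a ROR site).
Nt5e: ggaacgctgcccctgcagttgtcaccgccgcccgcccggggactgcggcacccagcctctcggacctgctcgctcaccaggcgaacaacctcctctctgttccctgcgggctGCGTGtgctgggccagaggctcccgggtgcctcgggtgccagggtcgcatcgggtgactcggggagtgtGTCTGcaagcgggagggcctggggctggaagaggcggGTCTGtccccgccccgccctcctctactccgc
Ctla4: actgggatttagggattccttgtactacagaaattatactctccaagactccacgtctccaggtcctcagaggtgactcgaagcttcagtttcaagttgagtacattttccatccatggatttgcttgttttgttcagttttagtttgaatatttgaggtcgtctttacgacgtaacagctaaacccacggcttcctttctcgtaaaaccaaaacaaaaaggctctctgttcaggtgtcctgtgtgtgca
Entpd1 start 1: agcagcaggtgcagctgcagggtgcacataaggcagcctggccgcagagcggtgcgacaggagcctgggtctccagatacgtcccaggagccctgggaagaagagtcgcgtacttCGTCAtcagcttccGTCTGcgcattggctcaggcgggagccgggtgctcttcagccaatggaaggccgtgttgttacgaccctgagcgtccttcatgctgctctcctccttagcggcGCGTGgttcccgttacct
Entpd1 start 2: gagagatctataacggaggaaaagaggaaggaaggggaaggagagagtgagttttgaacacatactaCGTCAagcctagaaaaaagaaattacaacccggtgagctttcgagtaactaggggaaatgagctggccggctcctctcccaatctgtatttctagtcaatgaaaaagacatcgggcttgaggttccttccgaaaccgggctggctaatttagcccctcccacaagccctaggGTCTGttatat

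Of these 4 windows, that of Nt5e was the richest in G and C, at 72.0% with 21 CG pairs, against 42.4% and 7 CG pairs for Ctla4. Entpd1 had 62.4% and 18 CG pairs before its first start and 47.2% and 8 before its second. The Nt5e window held 2 SMAD boxes and 1 aryl hydrocarbon receptor core. Both Entpd1 windows held 1 SMAD box and 1 cyclic AMP response core, and the first also held 1 aryl hydrocarbon receptor core. None of the 6 motifs was found in the Ctla4 window. Such matches are common: of 32851 windows of this length, 42.2% held a SMAD box, 28.2% an aryl hydrocarbon receptor core, 17.8% a cyclic AMP response core, 14.02% a ROR site, 7.02% a STAT site and 6.75% an AP-1 site. No motif overlapped another in these 4 windows.

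**Figure D1:**
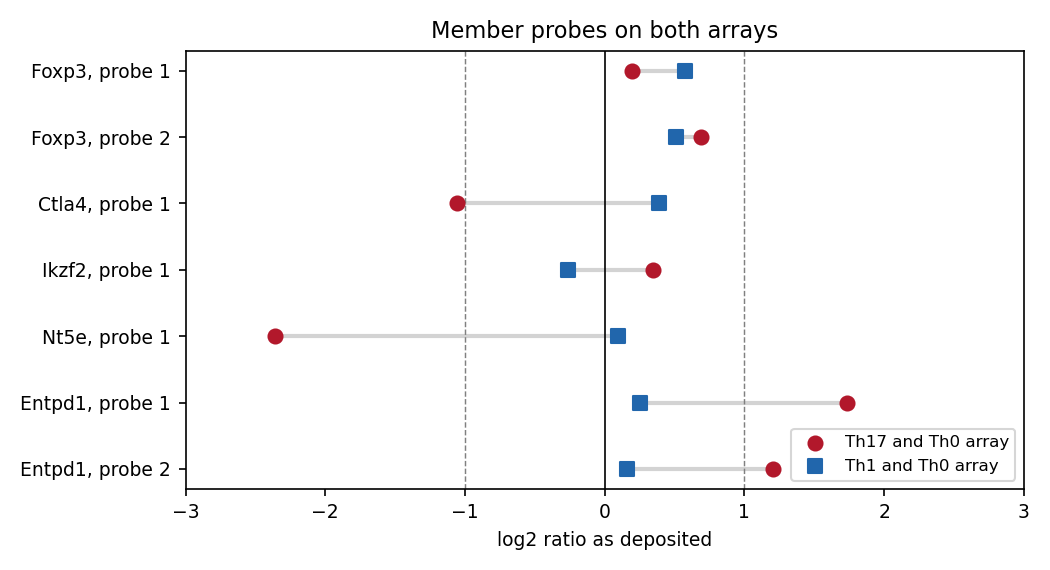
Log2 ratio as deposited (x axis) of each of the 7 probes on the Th17 and Th0 array (circles) and the Th1 and Th0 array (squares), with dashed lines at a 2-fold difference. Nt5e and Ctla4 lie left of the lower line and both Entpd1 probes right of the upper line on the Th17 and Th0 array, while no probe passes either line on the Th1 and Th0 array.

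The Th17 and Th0 array compares Th17-polarized with Th0 cells, and here the adenosine ectoenzymes and Ctla4 stood out from 0 while the regulatory T cell factors did not. Nt5e, the enzyme that makes adenosine, lay far on the Il17a side, and Ctla4 lay on that side at just over 2-fold. Entpd1, the enzyme that acts before Nt5e, lay on the opposite side. Foxp3 and Ikzf2 lay within 2-fold of 0. In all, 3 of the 5 measured members were at least 2-fold apart, where 8.42% of all genes were (1474 of 17501). The 2 on the Il17a side stand beside 5.52% of all genes there, and the 1 on the other side beside 2.9%.

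Nt5e had a log2 ratio of −2.36 on the Th17 and Th0 array, a 5.14-fold difference, at position 136 of 17501 genes counted from the lowest. It rests on 1 probe. Its size was 4.72 times the pooled SD between different probes of a gene, 0.50 over 5871 genes, which covers probes rather than samples. Genes with far more probes were left out of this pool. Among them, the SD between probes on this array was 0.12 for Gapdh (30 probes) and 0.39 for B2m (77 probes). The gene nearest to it in the plane of the 2 arrays was Il17f, another cytokine gene of the Th17 fate, at −2.38 on the Th17 and Th0 array and 0.06 on the Th1 and Th0 array, a distance of 0.04. The next nearest was the vomeronasal receptor gene Vmn1r210, at a distance of 0.13, and 6 genes lay within 0.25. This likeness rests on 2 values per gene. Counts of genes within 0.25, here and below, leave out clone and model names.

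Entpd1 lay at 1.73 by its first probe and at 1.21 by its second on the Th17 and Th0 array, which gives a mean of 1.47 (2.77-fold) at position 215 from the highest. Both probes thus lay past 2-fold on the side away from Il17a. The nearest genes in the plane were the globin genes Hbb-b1 at 1.51 and Hbb-b2 at 1.54, near-identical genes that their probes may not separate, and 22 genes lay within 0.25. The log2 ratios of Entpd1 and Nt5e, which encode consecutive steps from ATP to adenosine, were 3.83 apart on this array. That gap compares ratios and says nothing of the relative amounts of both RNAs.

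Ctla4 lay at −1.06 (2.09-fold) by its 1 probe, on the Il17a side, with 4.95% of genes further out there. Its size was 2.12 times the pooled SD between probes. With the array's zero point set to its most repeated value, Ctla4 lay at −0.63 and no longer passed 2-fold. Its nearest genes were the chaperone gene Hspa13 and the centrosome gene Cntrob, at distances of 0.04 and 0.05, and 34 genes lay within 0.25.

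Foxp3 lay at 0.19 by its first probe and at 0.69 by its second, a mean of 0.44 that is smaller than the pooled SD between probes. Ikzf2 lay at 0.34. Both values were on the side away from Il17a, with 11.4% of genes further out than Foxp3 and 15.7% further out than Ikzf2. As many as 901 genes lay within 0.25 of Foxp3 in the plane and 911 of Ikzf2, so the nearest names (Strap and Gabarap for Foxp3, Rcor2 and Rb1cc1 for Ikzf2) single out nothing.

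**Figure D2:**
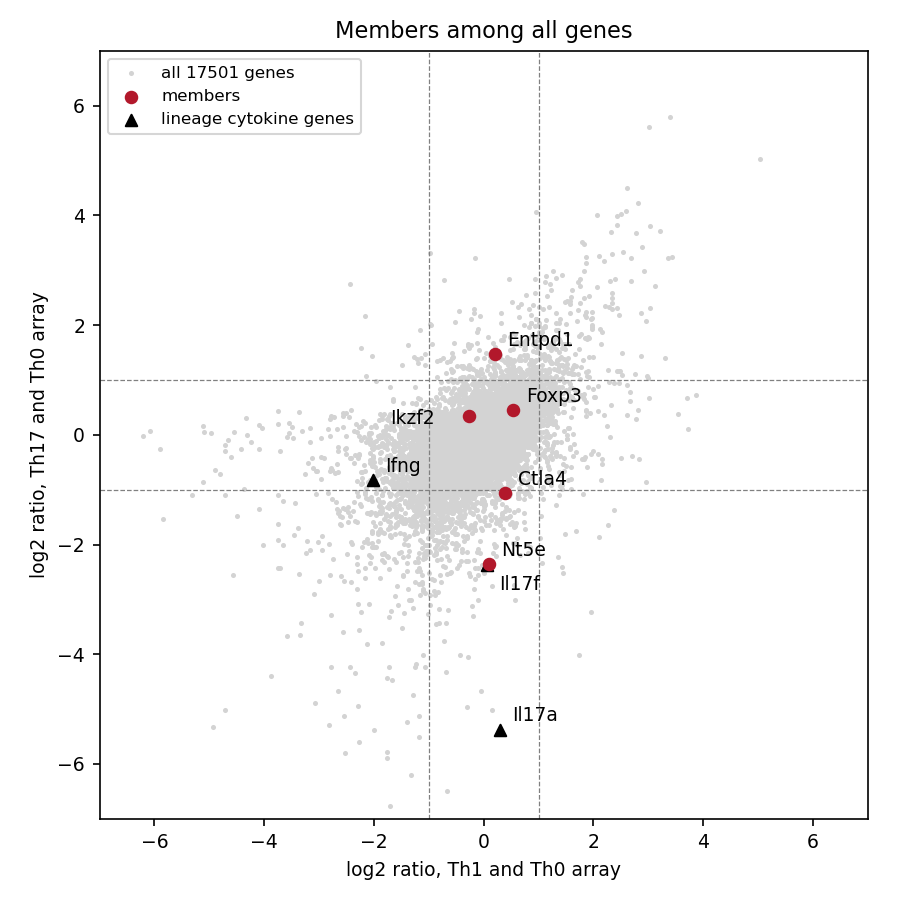
Log2 ratio on the Th1 and Th0 array (x axis) against that on the Th17 and Th0 array (y axis) for 17501 genes (grey), the 5 measured members (circles) and the cytokine genes Il17a, Il17f and Ifng (triangles), with dashed lines at 2-fold. The members spread along the vertical axis, from −2.36 for Nt5e, beside Il17f, to 1.47 for Entpd1, and stay between −0.26 and 0.54 on the horizontal axis.

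The Th1 and Th0 array compares Th1-polarized with Th0 cells, and no member was 2-fold apart there as deposited, although Foxp3 at 1.39, Ctla4 at 1.24 and Entpd1 at 1.05 were when the array was centred on its most repeated value. As deposited, none of the 5 measured genes passed that line, where 10.2% of all genes did (1784 of 17501), 6.92% on the Ifng side and 3.27% on the other. Nt5e lay at 0.09 (1.07-fold), Entpd1 at 0.25 and 0.16 by its 2 probes, and Ctla4 at 0.39. Foxp3 had the value furthest from 0 among them, 0.58 by its first probe and 0.51 by its second, a mean of 0.54 (1.46-fold). Its 2 probes differed less here (SD 0.05) than on the Th17 and Th0 array (SD 0.35).

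Ikzf2 was the sole member on the Ifng side of the Th1 and Th0 array, at −0.26. This value stands apart in its signal: measured from the array's most repeated value, −0.85, it equals the log2 of 3 over 2, and 64 probes of the array held that ratio within rounding. A ratio of such small whole numbers may mark a very weak signal, so the Ikzf2 value on this array may rest on little RNA. The other 13 member values matched no ratio whose smaller number was 5 or below, which 2.23% of probes did on the Th17 and Th0 array and 2.97% beside Th1. For Nt5e on the Th17 and Th0 array the smallest match was 65 to 17, and 6.41% of probes had a match with 17 or less.

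Th17 was set against Th1 as the log2 ratio of the Th17 and Th0 array minus that of the Th1 and Th0 array, which assumes the same Th0 RNA on both. The 3 genes that stood out were again Nt5e, Ctla4 and Entpd1, against 8.14% of all genes (1425 of 17501) at least 2-fold apart. The negative side held 2 of the members and 3.61% of all genes, and the positive side 1 member and 4.53% of all genes. Nt5e differed by −2.46 (5.48-fold), position 83 from the lowest, in the same direction as Il17a at −5.67. Ctla4 differed by −1.45 (2.73-fold), with 1.78% of genes further out on that side. Entpd1 differed by 1.27 (2.40-fold), by 1.48 for the first probe and 1.05 for the second, in the same direction as Ifng at 1.19. Ikzf2 differed by 0.61, which rests on that value of the Th1 and Th0 array. The Foxp3 difference was −0.10, made of −0.38 by the first probe and 0.18 by the second, so its probes lay on different sides.

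Setting the zero point of the arrays differently moved the members more on the Th1 and Th0 array than on the other. Nt5e, Ctla4 and Entpd1 kept their side on the Th17 and Th0 array and in the difference under each of the 3 zero points tried. On the Th1 and Th0 array, Nt5e ranged between −0.16 and 0.94, Entpd1 between −0.05 and 1.05 and Ikzf2 between −0.52 and 0.58, so no side can be given for these 3 genes there. Foxp3, between 0.29 and 1.39, and Ctla4, between 0.14 and 1.24, were above 0 there under each zero point.

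**Figure D3:**
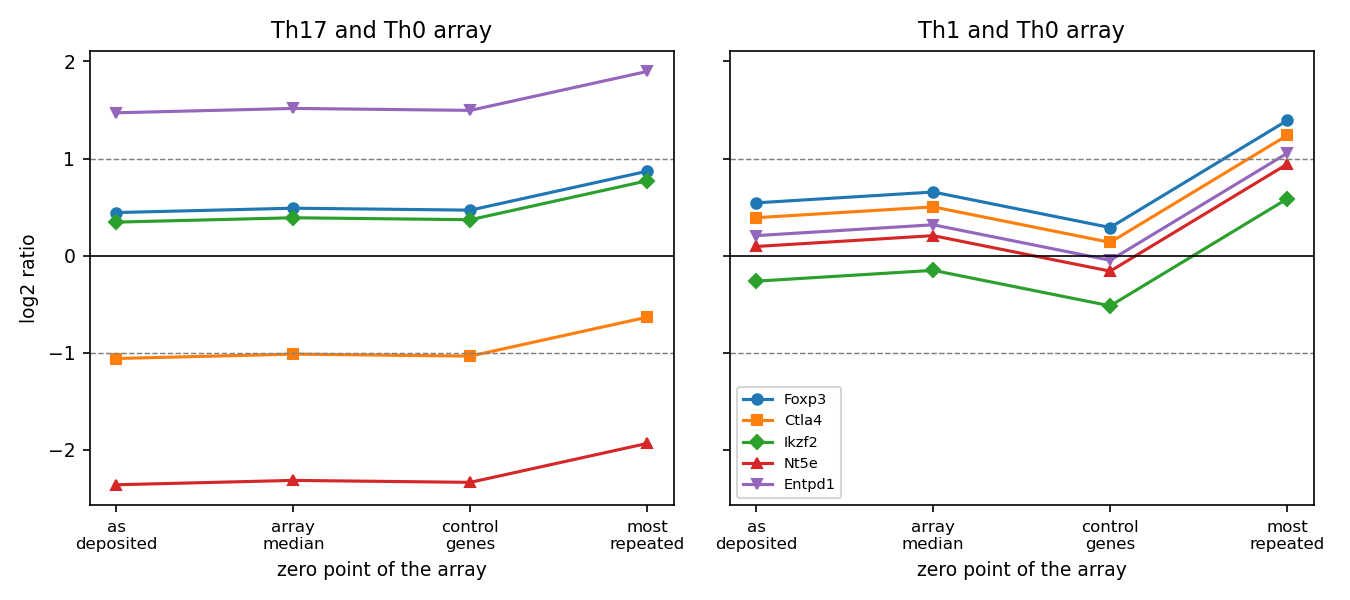
Log2 ratio (y axis) of the 5 measured members on each array with the zero point as deposited, at the array's median, at the median of widely expressed control genes, or at the most repeated value (x axis), with dashed lines at 2-fold. Each zero point shifts all members of an array by 1 amount, and the most repeated value lifts all of them by 0.43 beside Th17 and by 0.85 beside Th1.

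The other genes that break down extracellular nucleotides and adenosine passed 2-fold about as often as all genes did, for which the shares were 8.42% beside Th17 and 10.2% beside Th1. Of 16 measured breakdown enzymes, 1 was at least 2-fold negative and 0 were positive on the Th17 and Th0 array (median 0.02, against −0.03 for all genes), and on the Th1 and Th0 array 2 were negative and 0 positive (median −0.19, against −0.08 for all genes). The negative one beside Th17 was Acpp, an acid phosphatase that can also make adenosine from AMP, at −1.31, against 0.42 on the Th1 and Th0 array. The 2 on the Th1 and Th0 array were the ectonucleotidase gene Enpp3 at −1.11, whose 2 probes differed (SD 0.84), and Bst1, which acts on NAD, at −1.09. Beside Th17, where Entpd1 lay at 1.47, the 7 other Entpd genes lay between −0.40 and 0.57.

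The cytosolic nucleotidases, relatives in function of Nt5e that act inside the cell, lay between −0.30 and 0.34 on the Th17 and Th0 array, with 0 of 6 at least 2-fold apart. Among the 24 measured breakdown enzymes, these included, Nt5e was lowest and Entpd1 highest on that array. In the Th17 minus Th1 difference 5 of the 24 were at least 2-fold apart, where 8.14% of all genes were. Besides Nt5e and Entpd1 these were Acpp at −1.73, the cytosolic nucleotidase gene Nt5c3 at 1.09 and Enpp3 at 1.02, whose 2 probes differed (SD 1.06). Genes that act on adenosine itself were named for their role, none of them past 2-fold: Ada, adenosine deaminase, lay at 0.38 and −0.03 on the Th17 and the Th1 array, and Adk, adenosine kinase, at 0.71 and 0.47. Dpp4, which anchors adenosine deaminase at the surface of human T cells, lay at −0.43 and −0.18.

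**Figure D4:**
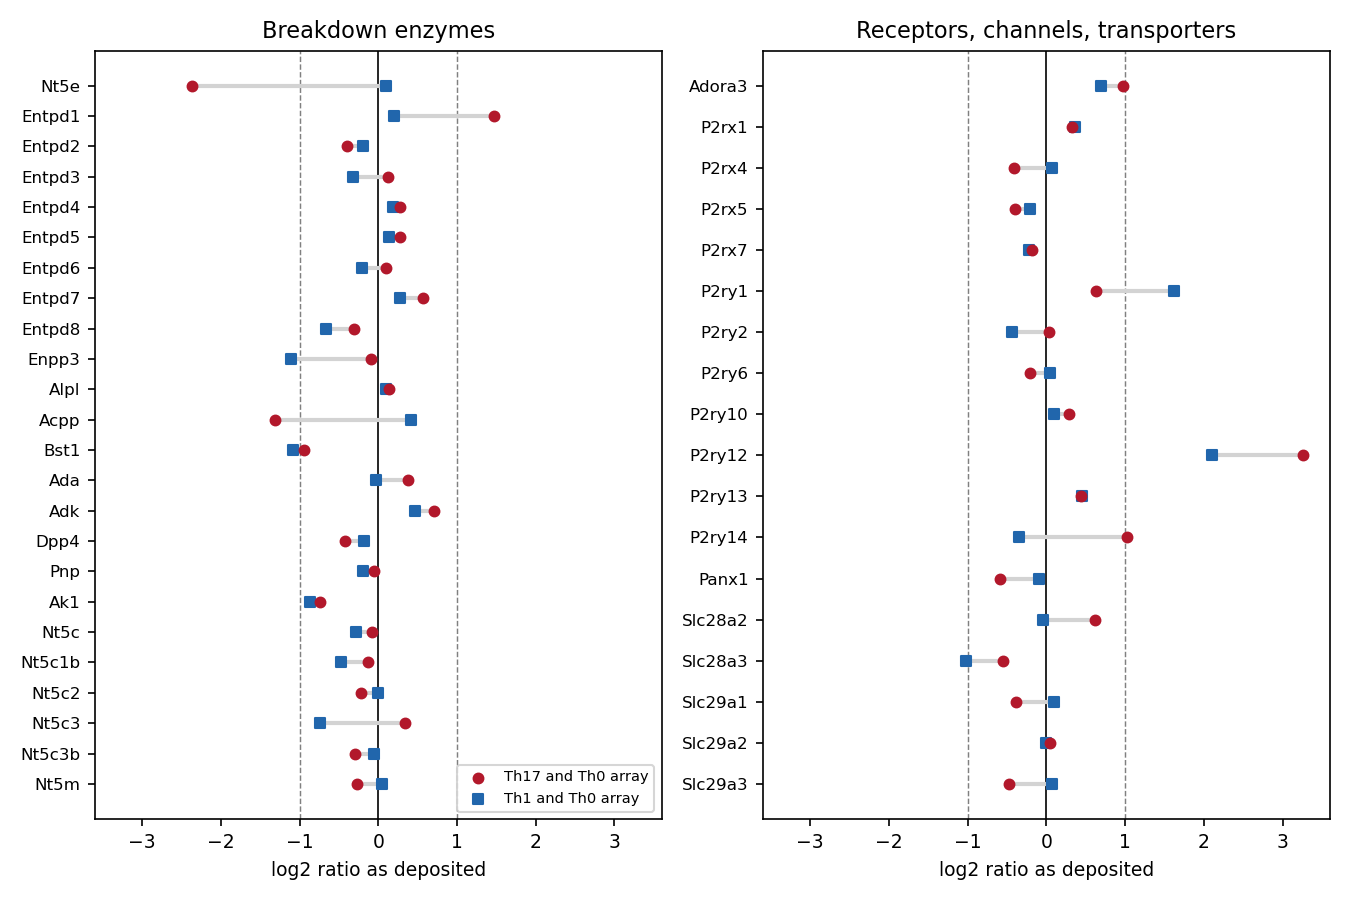
Log2 ratio as deposited (x axis) of 24 nucleotide and adenosine breakdown enzymes (left) and 18 receptors, channels and transporters (right) on the Th17 and Th0 array (circles) and the Th1 and Th0 array (squares), with dashed lines at 2-fold. Nt5e and Entpd1 mark the ends of the left panel on the Th17 and Th0 array, at −2.36 and 1.47.

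Of the receptors for the products, Adora3, named as the 1 adenosine receptor gene measured here and not past 2-fold, lay at 0.97 on the Th17 and Th0 array and 0.70 on the Th1 and Th0 array. Over 18 measured receptors, channels and transporters the medians were 0.04 and 0.06. On the Th17 and Th0 array 2 of them were at least 2-fold positive and 0 negative, beside 2.9% and 5.52% of all genes. These were P2ry12, an ADP receptor of platelets and microglia, at 3.26, and P2ry14, a receptor for UDP sugars, at 1.02. On the Th1 and Th0 array 3.27% of all genes were positive and 6.92% negative. P2ry12 was positive on the Th1 and Th0 array too, at 2.10, as was the ADP receptor gene P2ry1 at 1.62, and the nucleoside carrier gene Slc28a3 lay at −1.02 there. The 2 probes of Slc28a3 differed on that array (SD 0.78).

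Genes of the cyclic AMP pathway below the A2A receptor passed 2-fold about as often as all genes did. Of 21 measured, 2 were at least 2-fold negative and 0 positive on each array, where 8.42% of all genes were 2-fold apart beside Th17 and 10.2% beside Th1, with medians of 0.04 on the Th17 and Th0 array and −0.23 on the Th1 and Th0 array. Pde4b, a phosphodiesterase that breaks down cyclic AMP, lay at −1.18 and −2.10 on the Th17 and the Th1 array, the adenylate cyclase gene Adcy9 at −1.14 and −0.32, and the phosphodiesterase gene Pde8a at −0.78 and −1.02.

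Around Ctla4, members of the CD28 and inhibitory receptor group lay on both sides. On the Th17 and Th0 array 3 of 14 measured genes were at least 2-fold negative and 2 positive (median −0.02). On the Th1 and Th0 array 2 were negative and 1 positive (median −0.36). Of all genes, 5.52% were negative and 2.9% positive beside Th17, and 6.92% and 3.27% beside Th1. Cd86, which encodes a ligand of both CTLA-4 and CD28, lay with Ctla4 on the Il17a side at −1.93, as did the inhibitory receptor genes Btla at −1.36 and Lag3 at −1.08. Cd28 itself lay at −0.09 on the Th17 and Th0 array and at −1.39 on the Th1 and Th0 array. Trat1, an adaptor that helps bring CTLA-4 to the surface, lay at 1.38 and −1.22 on the Th17 and the Th1 array, and Havcr2, which encodes the inhibitory receptor TIM-3, at 3.23 and 2.69. In the difference, Lag3 at −1.83 and Cd86 at −1.57 lay on the side of Ctla4, while Trat1 at 2.60, Cd28 at 1.31 and Icos at 1.11 lay opposite, and the median of the list was 0.02.

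Genes linked to regulatory T cells did not form a common pattern with Foxp3. Of 22 measured, 4 were at least 2-fold negative and 3 positive on the Th17 and Th0 array, where 5.52% and 2.9% of all genes were. The median of −0.41 became 0.02 when the array was centred on its most repeated value. Penk, which encodes an opioid peptide precursor, lay at −3.24, Itgae, the integrin chain CD103, at −2.19 and Socs2, a cytokine feedback inhibitor, at −1.37, while Klrg1, a lectin-like receptor, lay at 2.99. Tnfrsf4 at −1.06 was the other negative gene, and Tnfrsf9 at 1.10 and Prdm1 at 1.21 the other positive ones, all named after their values were seen. The 2 probes of Tnfrsf9 (SD 2.26) and of Prdm1 (SD 1.15) differed widely there, so neither mean is firm. On the Th1 and Th0 array the list held 2 negative genes and 1 positive gene, beside 6.92% and 3.27% of all genes. These were Il10, an inhibitory cytokine gene, at −2.35, Penk at −1.46 and Klrg1 at 1.82.

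Among 29 measured partners and regulators of Foxp3, 4 were at least 2-fold negative and 1 positive on the Th17 and Th0 array, and 4 negative and 0 positive on the Th1 and Th0 array. All genes had 5.52% negative and 2.9% positive beside Th17, and 6.92% and 3.27% beside Th1. The list's medians were −0.20 and −0.30, against −0.03 and −0.08 for all genes, and became 0.22 and 0.54 when the arrays were centred on their most repeated values. Irf4, a factor used by both regulatory and Th17 cells, lay at −2.41 and −0.71 on the Th17 and the Th1 array, Bach2 at −1.29 and −0.57, and Satb1, a chromatin organiser, at −1.03 and −1.84. Gata3, the Th2 master regulator, lay at 1.28 and −1.49, and Tbx21, that of Th1 cells, at 0.87 and −1.25. The 4 measured relatives of Ikzf2 in the Ikaros family lay within 2-fold on both arrays, and Ikzf4, which encodes the Foxp3 partner Eos, at −0.72 and −0.42 (named after its values were seen).

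Genes that respond to TGF-beta or to the aryl hydrocarbon receptor, signals used in Th17 cultures in general, had a median on the side of Nt5e on the Th17 and Th0 array. Of 15 measured, 8 were at least 2-fold negative and 1 positive on the Th17 and Th0 array, where 5.52% of all genes were negative and 2.9% positive. Their median there was −1.26, against −0.03 for all genes. On the Th1 and Th0 array 1 was negative and 0 positive, where 6.92% and 3.27% of all genes were, and the median was 0.03, which became −0.23 when that array was centred on control genes. Cyp1a1, the classic target of the aryl hydrocarbon receptor, lay at −3.30, the receptor gene Ahr at −1.73, and the TGF-beta target genes Tgfbi and Ldlrad4 at −2.02 and −1.80. The positive gene was Gfi1, a transcriptional repressor, at 1.07, named after its value was seen. Cyp1a1 at −0.19, Ahr at 0.35 and Tgfbi at 0.22 lay within 2-fold on the Th1 and Th0 array, as most genes did. On the Th17 and Th0 array 12 of the 15 lay below 0 and 3 above, with Tgfbr2 at 0.76 and Tiparp at 0.23 beside Gfi1. A link of these genes to Nt5e was not tested. The list was chosen with earlier results of these data known, so its counts beside those of all genes are a description only. Itgae, at −2.19, was counted both here and among the genes linked to regulatory T cells.

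**Figure D5:**
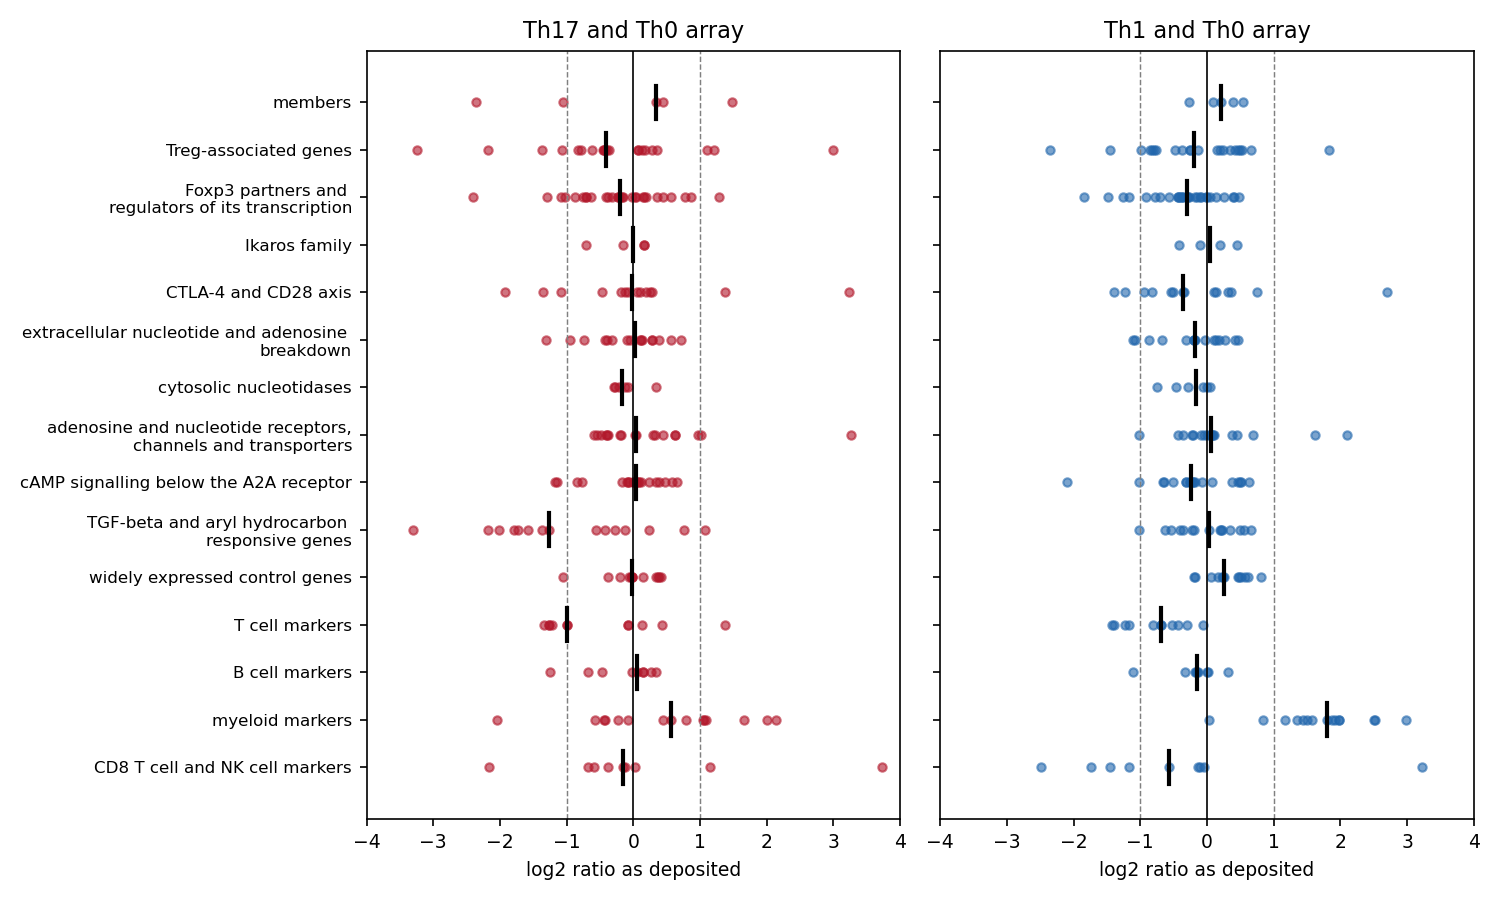
Log2 ratio as deposited (x axis) of every measured gene (points) and the median (black bars) of the 5 members and of 14 gene lists on the Th17 and Th0 array (left) and the Th1 and Th0 array (right), with dashed lines at 2-fold. The median of TGF-beta and aryl hydrocarbon responsive genes lies at −1.26 on the left and 0.03 on the right, and that of myeloid markers at 0.56 and 1.80.

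Marker genes of cell types moved beside these values, and in such bulk RNA fewer cells of a type and less RNA per cell cannot be told apart. T cell markers had a median of −1.0 on the Th17 and Th0 array, on the side of Ctla4 and Nt5e. There 5 of 11 were at least 2-fold negative and 1 positive, where 5.52% and 2.9% of all genes were. With that array centred on its median or on control genes, 4 were negative. Centred on its most repeated value, 0 were negative and 1 positive, and the median was −0.57. The T cell marker median on the Th1 and Th0 array was −0.70, which became 0.15 when that array was centred on its most repeated value. In the difference it was 0.205, not on the side of Ctla4 and Nt5e, and −0.22 with the arrays centred on their most repeated values. There 0 of these markers were at least 2-fold negative and 2 positive as deposited, beside 3.61% and 4.53% of all genes. Myeloid markers, relevant because macrophages also carry CD39, had medians of 0.56 on the Th17 and Th0 array and 1.80 on the Th1 and Th0 array. Beside Th17, 6 of 15 were at least 2-fold positive and 1 negative, and beside Th1 13 were positive and 0 negative. Of all genes, 2.9% were positive and 5.52% negative beside Th17, and 3.27% and 6.92% beside Th1. The myeloid median was further out beside Th1 than beside Th17, and in the difference 12 of the 15 markers lay below 0 and 3 above. Entpd1 lay at 1.47 beside Th17 and at 0.21 beside Th1, and a tie to these markers was not tested. B cell markers, whose cells carry both ectoenzymes, had medians of 0.05 and −0.15 over 9 genes, and markers of CD8 T cells and NK cells of −0.16 and −0.57 over 9. The file gives ratios without levels, so how much RNA any marker contributed, and its part in the members' values, was not tested.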

How the data were processed

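The deposited table holds 1 log2 ratio per probe and array, as the authors processed it, for 36547 probes with 0 missing values. For the scanner software, background correction and normalization, nothing is given in the sources used here. The unit was read from the values: repeated values were spaced by log2 of small whole-number ratios around the most repeated one, −0.85 on the Th1 and Th0 array (110 probes) and −0.43 on the Th17 and Th0 array (162 probes). Scale is thus taken as log2, while centring and direction stay unknown, and the medians over probes were −0.11 and −0.05 on these arrays. The arrays correlated over probes with r = 0.53, given as a description since they may share Th0 RNA.

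Probes with 1 gene in the platform annotation (26926) were kept, 203 with several genes and 9418 unnamed here were left out, and gene numbers matched a current RefSeq list (GRCm38.p6) for 26774. Probes of a gene were averaged on the log2 scale, giving 17501 genes, with Python 3.11.15 and pandas 2.3.3. Genes were counted at an absolute log2 ratio of at least 1. With 1 array per comparison no test was run and depth is unknown. The averaging and the search for whole-number ratios were tested on simulated data. Simulated differences lay well above the noise and simulated ratios were made from whole numbers, so success was largely fixed in advance. No rate of false matches was measured. Whole-number ratios were matched within 0.0001 on the log2 scale.

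The members and lists were chosen with earlier results of these data known. Named were all members, in each comparison (either array or the difference) up to 4 genes per list with the largest absolute value past 2-fold, so more than 4 over all comparisons, further nucleotide and CTLA-4 genes where they show the side of a count, and the 2 genes nearest to each member by distance over both log2 ratios, leaving out clone and model names. Ada, Adk, Dpp4 and Adora3 fall outside this rule and were chosen for their role after their values were seen. Some genes that meet the rule were not described above: Nr4a1 (−1.09 on the Th17 and Th0 array), Hdac7 (−1.16 on the Th1 and Th0 array, 1.61 in the difference) and Ski (−1.01 on the Th1 and Th0 array). The marker and control lists were given without naming genes by the rule. Other zero points, a median over probes, single probes and a higher threshold were tried as alternatives.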

Additional observations from a re-analysis of the deposited data

Results flagged for a closer look

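Nt5e and Ctla4 lay on different sides of 0 on the 2 arrays and at least 2-fold apart between them. Nt5e lay at −2.36 on the Th17 and Th0 array and 0.09 on the Th1 and Th0 array, a difference of −2.46. Ctla4 lay at −1.06 and 0.39 on these arrays, a difference of −1.45. With 1 array each, these differences were not tested, and the side of Nt5e on the Th1 and Th0 array turned to −0.16 when the arrays were centred on control genes.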

How the results depend on the processing

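Of 87 checks of member values and gene counts, 78 changed by less than the pooled SD between probes (values) or less than 1.5 times (counts), and 9 changed by more. Some of the 78 were fixed in advance, since members have 1 or 2 probes and their median over probes equals their mean. Each zero point adds 1 constant per array to all members, so these checks repeat one another. The count of 78 is therefore no measure of how robust the values are. Centring on the most repeated value added 0.43 on the Th17 and Th0 array and 0.85 on the Th1 and Th0 array, which put Foxp3 at 1.39, Ctla4 at 1.24, Entpd1 at 1.05, Nt5e at 0.94 and Ikzf2 at 0.58 on the Th1 and Th0 array and raised the genes at least 2-fold apart there to 5511. It also moved the Entpd1 difference to 0.84, under 2-fold. These shifts follow from the added constant. A threshold of 1.5 on the log2 scale left 650 genes on the Th17 and Th0 array, 703 on the Th1 and Th0 array and 624 in the difference, of which Nt5e alone of the members passed it, on the Th17 and Th0 array and in the difference. The negative share of genes at least 2-fold apart was 65.5%, 67.9% and 44.4% as deposited for these 3 comparisons, 62.0%, 56.5% and 51.1% centred on the median, 63.5%, 86.6% and 22.2% centred on control genes, and 25.4%, 5.39% and 81.8% centred on the most repeated value. List medians near 0 changed side with the zero point and are values, not directions. No paired analysis was possible because each comparison had 1 array. Without signal values, weak probes could be recognised only from their ratios.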
